A study of Solanum lycopersicum with 24 samples.

Results

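Phenylalanine ammonia-lyase (PAL) removes ammonia from phenylalanine and yields cinnamate, the entry step of the phenylpropanoid pathway. Lignin, flavonoids and the phenolic part of suberin, the polyester that tomato deposits in the exodermis of its root, all draw on this step. Plants carry several PAL genes, and in tomato some of them lie side by side. The copies followed here were chosen by locus: a cluster on chromosome 9 (Solyc09g007890, Solyc09g007900, Solyc09g007910 and Solyc09g007920, the last known as PAL5), with Solyc10g086180 on chromosome 10 and Solyc05g056170 on chromosome 5. Of these 6 loci, 5 were found among the 34688 transcripts of the table, 1 transcript per locus, and Solyc09g007910 is not analysed here. All 5 passed the filter on low counts.

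RNA came from hairy roots of tomato cultivar M82, which are transformed roots kept in culture. The 8 groups of 3 libraries were an empty-vector control, overexpression (OE) of SlMYB41, SlMYB92 or SlWRKY71 as fusions to a triple FLAG tag behind the constitutive cauliflower mosaic virus 35S promoter, and CRISPR/Cas9 knockouts (KO) of SlMYB41, of SlMYB92 and of SlWRKY71, the last as line 4 and line 5. All groups, the control included, were transformed cultures grown for 9 days at 25 °C in the dark on medium with 3% sucrose and cefotaxime, and each sample pooled the first 1 cm of 10 root tips. The labels name separate lines only for the SlWRKY71 knockouts and do not say how many independent transformants stand behind the other groups. P-values here cover the variation among samples, and a line effect cannot be told apart from the perturbation. The series design asks how these transcription factor genes, enriched in the exodermis, affect the transcriptome.

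Library totals ran from 4852464 to 15372241 estimated counts, and 18297 genes passed the filter. Levels are given as CPM, estimated counts scaled to a common library size after TMM normalization, and libraries are named by the number in their column. In their own overexpression groups SlMYB41 (Solyc02g079280) stood at 7.18 to 13.6 CPM and SlMYB92 (Solyc05g051550) at 48.2 to 87.6 CPM, against at most 0.159 and 0.188 CPM in the control. SlWRKY71 (Solyc02g071130) stood at 5.21 to 41.5 CPM against 1.13 to 1.99 CPM, with library 2 the lowest, below the 5.55 CPM of 1 SlMYB92 KO library. Counts did not check the knockouts, as an edited transcript may go on giving reads: SlWRKY71 stood at 1.06 to 3.15 CPM in line 4 and 0.456 to 4.3 CPM in line 5. SlMYB41 and SlMYB92 had almost no reads in the control, so a loss could not show in their counts. In their own knockouts they reached at most 0.27 and 0.199 CPM. Library 2 of SlWRKY71 OE stood apart from its group, with correlations of log2(CPM + 1) over genes of 0.936 and 0.925 with libraries 4 and 5, where the other 22 pairs of replicates reached 0.957 to 0.982. Fold changes of the 5 copies in SlWRKY71 OE against the control are therefore also given without it. Against the SlWRKY71 knockouts this is done for PAL5 and Solyc10g086180. The share of all tested genes that changed moved as well, from 0.896% to 8.5% against the control and from 30.9% to 38.8% against the SlWRKY71 knockouts.

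Reads that match several copies are divided by estimation, and fractional values show where this happened. The 3 copies of the chromosome 9 cluster had counts that were not whole in 24 of 24 libraries, Solyc10g086180 in 2 and Solyc05g056170 in 0. Values of the chromosome 9 copies therefore depend on how reads were shared among them, whereas those of the other 2 copies rest almost wholly on reads assigned to 1 transcript. The sum of the 3 cluster copies was itself not whole in 21 of 24 libraries at a tolerance of 0.02 counts, so some of these reads were shared with transcripts outside the 3 rows. The sum of all 5 copies was also not whole in 21 of 24 libraries. Family sums and shares therefore depend in part on reads shared with transcripts outside the 5 rows.

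PAL5 and Solyc05g056170 held most of the family's counts in every library. PAL5 took 20.8% to 79.5% of the counts of the 5 copies and Solyc05g056170 9.64% to 66.6%. Solyc10g086180 took 3.26% to 18.7%, Solyc09g007900 1.25% to 5.8%, and Solyc09g007890 0.0713% to 0.452%, which is 2.13 to 33.8 estimated counts per library. These shares are of counts, not divided by transcript length, and say where the reads fell rather than which copy was the more abundant per length. In the control PAL5 held 72.3% ± 7.89 of the counts and Solyc05g056170 17.9% ± 8.57 (SD, n = 3). The other groups had mean shares of 38.7% to 57% for PAL5 and 33.5% to 48.8% for Solyc05g056170. Replicates of 1 group could differ as much as groups did: in SlWRKY71 KO line 5 the share of PAL5 was 20.8%, 66.1% and 45.2% in libraries 2, 3 and 5.

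**Figure D1:**
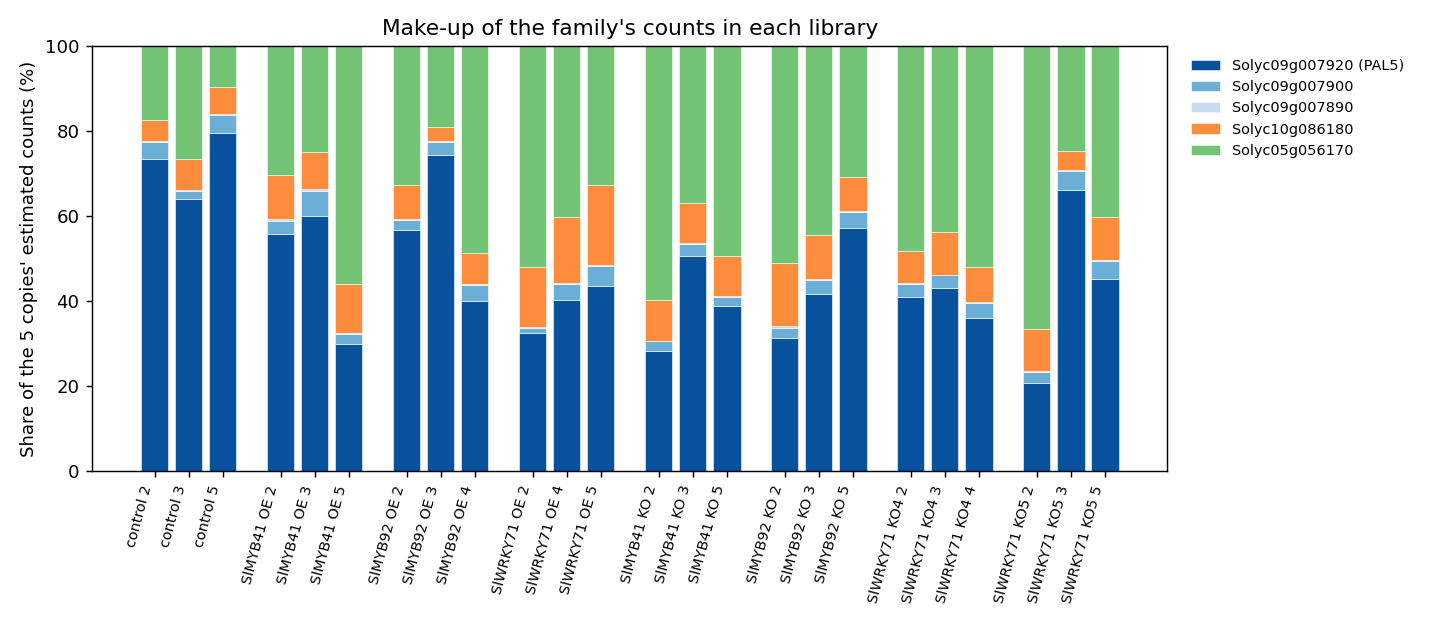
Share of each PAL copy in the estimated counts of the 5 copies, in percent, for each of the 24 libraries; bars are libraries, numbered as in the deposited columns, and colours are copies. PAL5 held 63.9% to 79.5% in the control libraries and 20.8% to 74.3% in the others.

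PAL5 had its highest mean in the control. In bulk root tips such as these, fewer cells of a type and less RNA per cell cannot be told apart. It stood at 921, 577 and 733 CPM in control libraries 2, 3 and 5. With SlMYB41 overexpressed it stood at 414, 377 and 154 CPM in libraries 2, 3 and 5, all below the lowest control library. With SlMYB92 overexpressed it stood at 467, 802 and 322 CPM in libraries 2, 3 and 4, and library 3 lay within the control's range. With SlWRKY71 overexpressed the values were 200, 256 and 327 CPM in libraries 2, 4 and 5, again all below the control. The SlMYB41 KO libraries 2, 3 and 5 held 216, 271 and 371 CPM. The SlMYB92 KO libraries 2, 3 and 5 spread most widely among the knockouts on this scale, at 192, 279 and 544 CPM, and the highest came close to the control's lowest. SlWRKY71 KO line 4 stood at 286, 256 and 221 CPM in libraries 2, 3 and 4, the tightest group. Line 5 stood at 114, 405 and 333 CPM in libraries 2, 3 and 5. Among the 21 libraries outside the control, 1 reached the control's range. Over the groups that lay wholly below the control, the same held for 7.14% (SlWRKY71 OE) to 17% (SlWRKY71 KO line 4) of all tested genes. These comparisons use the same control libraries, so separations from the control are not independent. In the order of group means (control, SlMYB92 OE, SlMYB92 KO, SlMYB41 OE, SlMYB41 KO, SlWRKY71 KO line 5, SlWRKY71 OE, SlWRKY71 KO line 4) every pair of neighbours overlapped in its libraries.

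**Figure D2:**
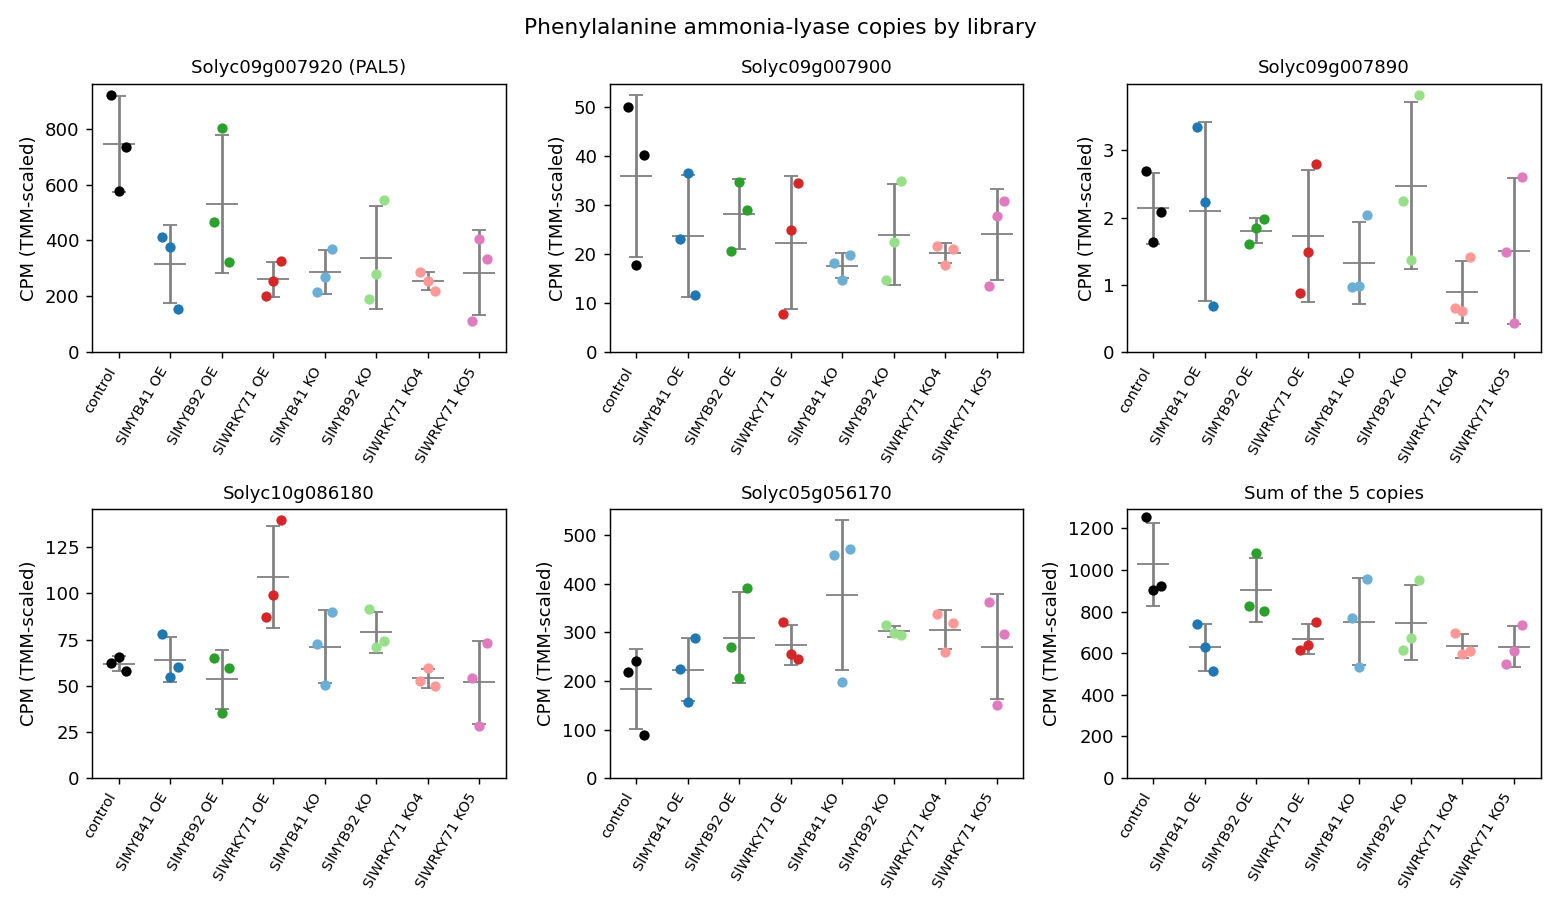
Level of each PAL copy and of their sum in TMM-scaled CPM on linear axes from 0, by group; points are libraries, grey bars the group mean and its SD over 3 libraries. PAL5 lay at 577 to 921 CPM in the control and reached that range elsewhere only in SlMYB92 OE library 3, at 802 CPM. Solyc10g086180 had its highest mean in SlWRKY71 OE, at 87.1 to 140 CPM, and overlapped there with the SlMYB92 KO, at 70.8 to 91.5 CPM.

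Against the control PAL5 passed the test in 1 of 7 comparisons, SlWRKY71 KO line 4, where it fell by 1.55 on the log2 scale (SE 0.44; 254 ± 32.9 against 744 ± 172 CPM, SD, n = 3; edgeR adjusted p = 0.037). In that comparison 2.73% of all tested genes were lower at an adjusted p under 0.05, and in 17% all libraries lay below the control. The call was lost without any 1 of the 6 libraries compared (adjusted p of 0.065 to 0.17). In line 5 the log2 fold change was -1.39 (SE 0.44; edgeR adjusted p = 0.054), and the log2 difference of line 5 from line 4 was 0.16 (SE 0.43; 95% interval -0.74 to 1.06; edgeR adjusted p = 1). SlWRKY71 OE stood at -1.51 on the log2 scale (SE 0.44; edgeR adjusted p = 0.11), and at -1.36 without library 2 (adjusted p = 0.097). Set directly against the mean of the knockout lines, SlWRKY71 OE had a log2 difference of -0.04 (SE 0.37; 95% interval -0.82 to 0.74; edgeR adjusted p = 0.95), and of 0.11 without library 2.

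In the SlMYB41 KO the log2 fold change of PAL5 was -1.38 (SE 0.44; edgeR adjusted p = 0.07), and in SlMYB41 OE -1.24 (SE 0.44; adjusted p = 0.27). The SlMYB92 KO was at -1.14 (SE 0.44; edgeR adjusted p = 0.23) and SlMYB92 OE at -0.49 (SE 0.43; adjusted p = 0.62). DESeq2 gave PAL5 an adjusted p of 0.031 in the SlMYB41 KO, 0.024 in SlWRKY71 KO line 5 and 0.041 in SlWRKY71 OE. These 7 comparisons share the 3 control libraries. Set instead against the groups that target other genes, PAL5 was at -0.03 in SlMYB41 OE, -0.16 in the SlMYB41 KO, -0.45 in SlWRKY71 OE, -0.49 in SlWRKY71 KO line 4 and -0.33 in line 5. The direction differed from that against the control for SlMYB92, to 0.92 with overexpression and 0.28 in the knockout. None of the 7 values passed with that reference (edgeR adjusted p of 0.14 to 1). Between other groups PAL5 differed by 0.14 on the log2 scale between SlMYB41 OE and KO (SE 0.43) and by 0.65 between SlMYB92 OE and KO (SE 0.43). The log2 difference was 0.75 between SlMYB92 OE and SlMYB41 OE (SE 0.43) and 0.24 between the SlMYB92 and SlMYB41 knockouts (SE 0.43). None of these passed (edgeR adjusted p of 0.41 to 0.96).

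**Figure D3:**
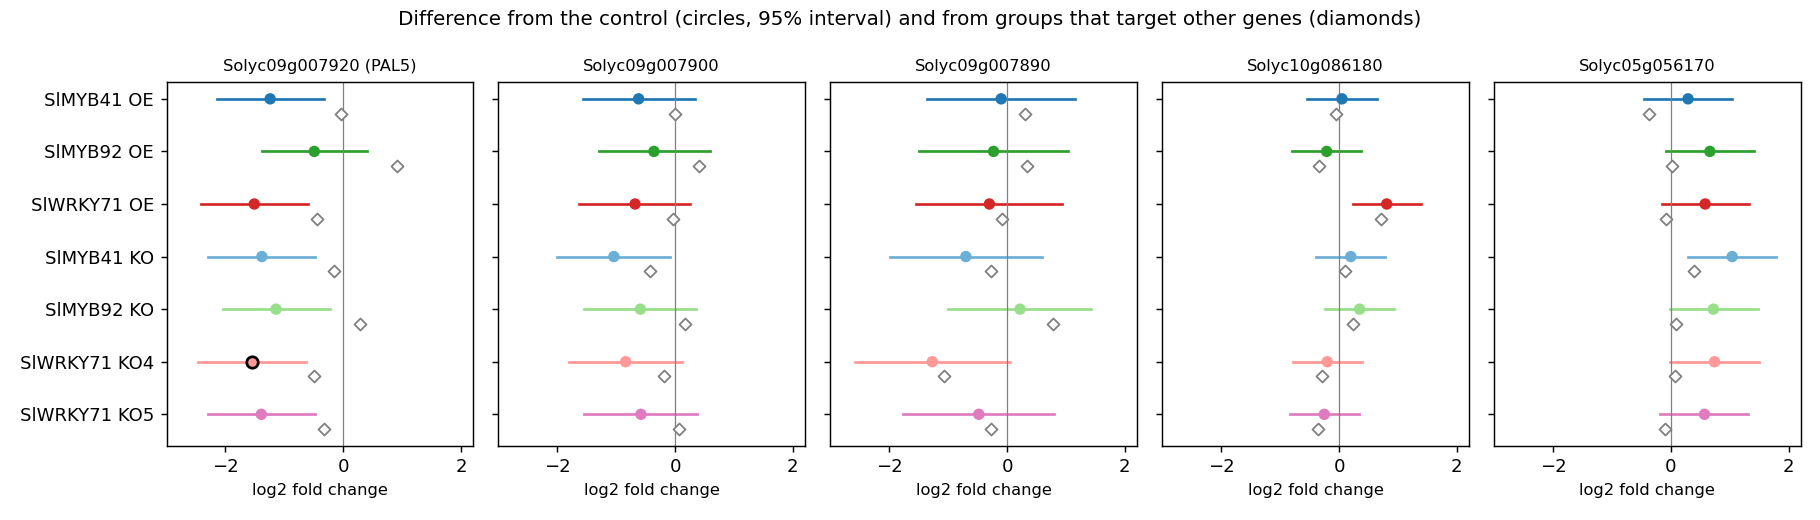
Log2 fold changes of the 5 PAL copies in the 7 groups; circles with 95% intervals are against the control, grey diamonds against the mean of the groups that target other genes, and a black rim marks an edgeR adjusted p under 0.05 against the control. PAL5 ran from -1.55 to -0.49 against the control and from -0.49 to 0.92 against the other groups.

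The neighbours of PAL5 were lower in counts and less precise. Solyc09g007900 stood at 50, 17.7 and 40.1 CPM in control libraries 2, 3 and 5, and at 7.73 CPM (SlWRKY71 OE library 2) to 36.5 CPM (SlMYB41 OE library 3) elsewhere, so that every group overlapped the control. Its log2 fold changes ran from -1.04 (SE 0.46; edgeR adjusted p = 0.21) in the SlMYB41 KO to -0.36 (SE 0.46; adjusted p = 0.76) in SlMYB92 OE, and none passed. Without library 2, SlWRKY71 OE moved from -0.68 to -0.3 for Solyc09g007900 and from -0.3 to -0.01 for Solyc09g007890. Solyc09g007890 stood at 2.7, 1.63 and 2.08 CPM in the control and at 0.437 to 3.82 CPM elsewhere. Its libraries lay below the control in SlWRKY71 KO line 4, at 0.655, 0.61 and 1.42 CPM, as in 17% of tested genes. There its log2 fold change was -1.27 (SE 0.64, edgeR adjusted p = 0.22). In the SlMYB92 KO it was at 0.22 (SE 0.58; edgeR adjusted p = 0.95), and the interval from -1 to 1.43 on the log2 scale shows how little these counts resolve. Of 20 tested loci next to the cluster, 10 on either side in the order of the identifiers, at most 2 changed against the control in any of the 7 comparisons by edgeR and at most 4 by DESeq2. The 4 by DESeq2 were in the SlMYB41 KO, where it called 1425 genes in all against 935 by edgeR. The edgeR count was highest in the SlMYB41 KO, the SlMYB92 KO and SlWRKY71 KO line 5, where 5.11%, 2.87% and 7.79% of all tested genes changed. At an unadjusted p under 0.05 the counts went up to 8 of 20, in the SlMYB41 KO, against 20.5% of all tested genes there, and 7 of 20 in SlMYB92 OE against 16.9%. Median log2 fold changes of the 20 loci lay between -0.23 and 0.27, with single loci from -2.51 to 1.62.

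Solyc05g056170 had its lowest mean in the control, 183 ± 82.5 CPM (SD, n = 3), which is 230.2 CPM without library 5, above the 223 ± 65.2 CPM of SlMYB41 OE. It stood at 219, 242 and 88.8 CPM in control libraries 2, 3 and 5, the last the lowest of all 24. The SlMYB41 KO had the highest mean, with 459, 198 and 473 CPM in libraries 2, 3 and 5, and library 3 fell within the control's range. The SlMYB92 KO stood at 315, 298 and 294 CPM in libraries 2, 3 and 5, all above the control. SlWRKY71 KO line 4 stood at 338, 260 and 318 CPM in libraries 2, 3 and 4, and SlWRKY71 OE at 321, 256 and 246 CPM in libraries 2, 4 and 5. Both groups also lay above every control library. Of all tested genes, 8.01% lay wholly above the control in the SlMYB92 KO, 17.5% in line 4 and 7.43% in SlWRKY71 OE. SlWRKY71 KO line 5, at 364, 151 and 297 CPM in libraries 2, 3 and 5, overlapped the control. The same was true of SlMYB92 OE, at 271, 206 and 391 CPM in libraries 2, 3 and 4, and of SlMYB41 OE, at 224, 157 and 288 CPM in libraries 2, 3 and 5. In the order of group means all neighbours overlapped.

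No comparison of Solyc05g056170 with the control passed. The log2 fold changes ran from 0.29 (SE 0.36; edgeR adjusted p = 0.91) in SlMYB41 OE to 1.04 (SE 0.36; adjusted p = 0.1) in the SlMYB41 KO. The SlMYB41 KO passed without its library 3, at 1.34 (edgeR adjusted p = 0.034). In between lay SlWRKY71 KO line 5 at 0.57, SlWRKY71 OE at 0.58, SlMYB92 OE at 0.66, the SlMYB92 KO at 0.72 and SlWRKY71 KO line 4 at 0.74, each with an SE of 0.36. With the groups of the other targets as reference the values lay between -0.37 and 0.39. Without control library 5 all 7 values against the control were smaller, from -0.06 in SlMYB41 OE and 0.22 in SlWRKY71 KO line 5 to 0.4 in the SlMYB92 KO and in line 4 and 0.69 in the SlMYB41 KO. Without its library 2, SlWRKY71 OE was at 0.45. SlMYB41 OE against its knockout gave -0.75 (SE 0.36; 95% interval -1.5 to 0; edgeR adjusted p = 0.38).

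Solyc10g086180 had its highest mean with SlWRKY71 overexpressed, at 87.1, 99.1 and 140 CPM in libraries 2, 4 and 5. SlMYB92 KO library 2, at 91.5 CPM, and SlMYB41 KO library 5, at 90.1 CPM, lay above the lowest of these. In SlWRKY71 KO line 4 Solyc10g086180 was at 52.3, 59.6 and 49.9 CPM in libraries 2, 3 and 4. In line 5 it was at 54, 28.3 and 73.2 CPM in libraries 2, 3 and 5. Every overexpression library lay above every knockout library of this gene, as in 8.9% of tested genes. It was higher with SlWRKY71 overexpressed than in the mean of the 2 knockout lines by 1.04 on the log2 scale, a 2.05-fold difference (SE 0.24; 95% interval 0.55 to 1.53; edgeR adjusted p = 0.0031). The call held without each of the 9 libraries in turn (0.79 to 1.19 on the log2 scale; edgeR adjusted p of 0.0015 to 0.043), with 1.17 and 0.0015 without overexpression library 2. That comparison is broad: 30.9% of all tested genes changed and 17.9% were higher. The 1 of 5 PAL copies that passed is below the first share and slightly above the second. With 5 copies, 1 passing does not set the family apart from all genes. The other 4 copies had log2 differences of -0.07 to 0.58 there, with overexpression library 2 included.

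Against the control, whose libraries 2, 3 and 5 stood at 62.5, 65.6 and 57.7 CPM, the SlWRKY71 OE libraries also did not overlap, as in 7.43% of tested genes in this direction. The log2 fold change of Solyc10g086180 was 0.81 (SE 0.28; edgeR adjusted p = 0.18), and 0.94 without library 2 (adjusted p = 0.054). With the groups of the other targets as reference it was 0.72 and passed (edgeR adjusted p = 0.035). Knockout lines 4 and 5 were at -0.2 (SE 0.28; edgeR adjusted p = 0.7) and -0.25 (SE 0.28; adjusted p = 0.61) against the control. The MYB groups lay closer to the control than SlWRKY71 OE did: 77.8, 54.5 and 60 CPM in SlMYB41 OE libraries 2, 3 and 5, and 65.2, 35.2 and 59.7 CPM in SlMYB92 OE libraries 2, 3 and 4. The knockouts held 72.8, 50.4 and 90.1 CPM for SlMYB41 and 91.5, 70.8 and 74.3 CPM for SlMYB92, in libraries 2, 3 and 5 of each. Among these 4 groups only the SlMYB92 KO lay wholly above the control, as in 8.01% of tested genes. Its log2 fold change was 0.35 (SE 0.28, edgeR adjusted p = 0.74). The SlMYB92 OE libraries all lay below those of the SlMYB92 KO, as in 13% of tested genes, with a log2 difference of -0.56 (SE 0.28; edgeR adjusted p = 0.25).

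Counted over the family, few copies passed in any comparison. Against the control 0 of 5 passed in SlMYB41 OE (0.978% of all tested genes changed), SlMYB92 OE (3.28%), SlWRKY71 OE (0.896%, and 8.5% with 0 of 5 copies without its library 2), the SlMYB41 KO (5.11%), the SlMYB92 KO (2.87%) and SlWRKY71 KO line 5 (7.79%), and 1 of 5 in line 4 (6.92%), by edgeR's quasi-likelihood test. At an unadjusted p under 0.05 the counts were 1, 0, 2, 3, 1, 1 and 1 in the same order, and with DESeq2 they were 0, 0, 1, 1, 0, 1 and 1, PAL5 each time. DESeq2 called more genes in all: 328, 925, 408, 1425, 711, 2071 and 2082 in that order. The numbers by edgeR were 179, 601, 164, 935, 525, 1425 and 1266. The share of all tested genes at an unadjusted p under 0.05 was 8.91%, 16.9%, 15.1%, 20.5%, 12%, 24.7% and 25%. The libraries did not overlap with the control for 1, 0, 3, 1, 3, 1 and 3 of the 5 copies in that order, against 16.6%, 25.3%, 14.6%, 26.3%, 16.9%, 30.2% and 34.5% of all tested genes. Without library 2 of SlWRKY71 OE the count there was again 3, against 45.7% of all tested genes with 2 libraries against 3. Median log2 fold changes of the 5 copies were -0.1, -0.23, -0.3, -0.7, 0.22, -0.48 and -0.84 in that order, against medians of all tested genes of -0.01 to 0.04. The median was the value of Solyc09g007890, the copy with the fewest counts, in each group but SlWRKY71 KO line 4. There it was the value of Solyc09g007900. In each comparison the copies differed in sign, with single values from -1.55 to 1.04, so these medians show no shift of the family as a whole.

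Of the 6 comparisons between groups, the one of SlWRKY71 OE with its knockouts had the single passing copy. The other 5 had 0 of 5 by edgeR and 0 of 5 by DESeq2. All tested genes changed in 3.2% between SlMYB41 OE and KO, 7.77% between SlMYB92 OE and KO, 0.552% between SlMYB92 OE and SlMYB41 OE, 0.355% between the MYB knockouts and 0.0547% between the SlWRKY71 knockout lines. At an unadjusted p under 0.05 there was 1 copy between SlMYB41 OE and KO, Solyc05g056170, and 0 in the other 4, with 13.1%, 22%, 9.62%, 12.2% and 3.44% of all tested genes in the order given, and 42.2% between SlWRKY71 OE and its knockouts. The largest log2 difference in size in these 5 comparisons was 0.91 (SE 0.61), for Solyc09g007890 between the SlMYB92 and SlMYB41 knockouts.

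The sum of the 5 copies varied less than its main parts. Over the 24 libraries it spanned 2.44-fold, from 514 to 1255 CPM, where PAL5 spanned 8.11-fold and Solyc05g056170 5.32-fold. A sum cannot span more than its widest part, so a narrower span is in part arithmetic. The sum stood at 1255, 904 and 921 CPM in control libraries 2, 3 and 5, the highest group at 1027 ± 198 CPM (SD, n = 3). SlMYB92 OE came next, at 825, 1079.5 and 803 CPM in libraries 2, 3 and 4, and overlapped the control. The SlMYB41 and SlMYB92 knockouts, at 753 ± 210.4 and 746 ± 179 CPM, each overlapped it through library 5, at 955 and 951 CPM. The remaining 4 groups had means of 628 to 668 CPM, 61.2% to 65.1% of the control's, and no library reached the control's range. The mean of SlWRKY71 OE, 668 CPM, was 694 CPM without library 2. All neighbours in the order of means overlapped. These sums are given as descriptions, without a test. The 3 chromosome 9 copies alone made up 75.9% ± 9.17 of the sum in the control and 41.8% to 60.3% in the group means elsewhere.

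Over the 24 libraries, PAL5 and Solyc09g007900 ran in parallel (Pearson's r of log2(CPM + 1) 0.75, Spearman's rho 0.74), and r of their deviations from the group means was 0.74. These copies share reads by estimation and libraries by design, so the values are descriptions and are given without a p. PAL5 and Solyc05g056170 ran in opposite directions, at r of -0.54 and rho of -0.58. Without the control libraries r was -0.41, for deviations within groups -0.46, and -0.53 without the 2 libraries farthest from the median of PAL5 on the log scale, SlWRKY71 KO line 5 library 2 and control library 2. Solyc10g086180 and Solyc05g056170, whose counts are nearly all whole, had r of 0.37 over all libraries and 0.57 within groups. PAL5 and Solyc10g086180 were at -0.19.

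**Figure D4:**
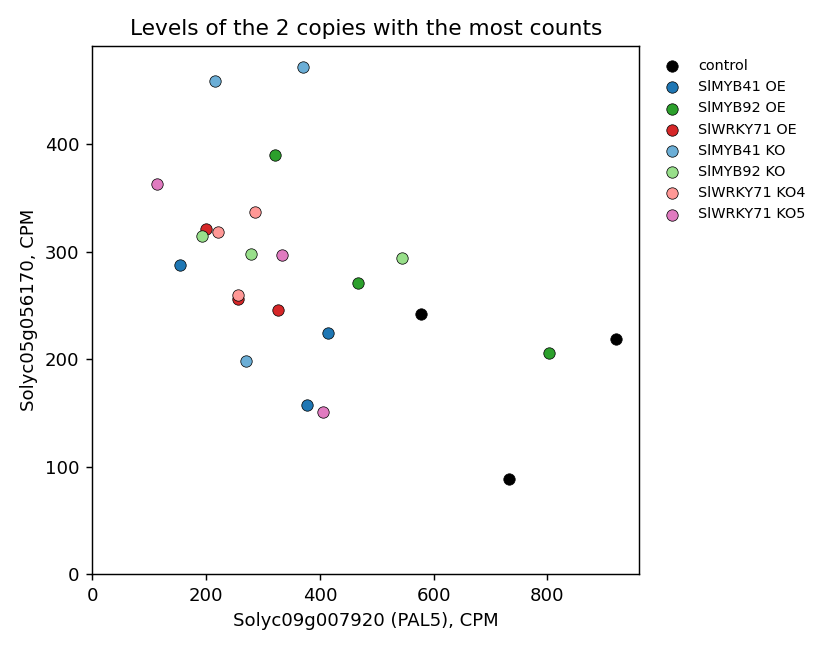
Level of PAL5 (x axis, CPM) against Solyc05g056170 (y axis, CPM) in the 24 libraries, coloured by group. Libraries with high PAL5 tended to have low Solyc05g056170 (r = -0.54 for log2(CPM + 1)), and the 3 control libraries lie at the right, at 577 to 921 CPM of PAL5.

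The tested gene outside the family with the pattern most like the sum of the copies was Solyc05g052890 (r = 0.81, rho 0.69 over 24 libraries; 0.96 over the 8 group means), followed by Solyc12g096460 (r = 0.75, rho 0.67; 0.91 over group means). Without the 2 libraries with the most extreme sums, control library 2 and SlMYB92 OE library 3, r was 0.69 and 0.63. The most opposite patterns were those of Solyc10g053970 (r = -0.85, rho -0.83) and Solyc07g048110 (r = -0.74, rho -0.73), with r of -0.76 and -0.72 without those libraries. As these genes were picked as the extremes of all tested genes outside the family, extreme values of r follow in part from the choice. Solyc05g052890 was low, with means of 2.66 CPM in the control and 0.395 to 2.64 CPM elsewhere. The means in the same order were 50.6 and 24.9 to 37.4 CPM for Solyc12g096460 and 95.5 and 105 to 144 CPM for Solyc10g053970. For Solyc07g048110 they were 11.9 and 12 to 15.7 CPM. The files do not pair these identifiers with gene names.

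Later steps of the phenylpropanoid pathway were followed through 13 loci written down from memory and checked against no table, so only counts are given. Of these, 11 were tested. Against the control, by edgeR, 2 were higher with SlMYB92 overexpressed, as were 2.02% of all tested genes. In SlWRKY71 KO line 4 and in line 5, 1 was lower, as were 2.73% and 3.26% of all tested genes. In the other 4 comparisons with the control 0 passed by edgeR and 0 by DESeq2. At an unadjusted p under 0.05 there were 1 to 3 of the 11, against 8.91% to 20.5% of all tested genes. With SlWRKY71 overexpressed 3 were higher and 1 lower than in its knockouts, as were 17.9% and 13% of all tested genes. Between SlMYB41 OE and KO 1 was higher and 1 lower, as were 1.93% and 1.27% of all tested genes. With SlMYB92 overexpressed 2 were higher than in its knockout, against 4.47% of all tested genes. In SlMYB92 OE 1 was higher than in SlMYB41 OE, and in the SlMYB92 KO 1 was higher than in the SlMYB41 KO. The shares of all tested genes higher there were 0.41% and 0.153%. Between the SlWRKY71 knockout lines 0 passed by edgeR and 0 by DESeq2. There 1 was at an unadjusted p under 0.05, against 3.44% of all tested genes. The median log2 fold change of the 11 against the control ran from -0.41 in SlWRKY71 KO line 4 to 0.28 in SlMYB92 OE.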

How the data were processed

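The values analysed are the authors' deposited estimated counts, 1 per transcript and library. The submitters' processing notes name Trim Galore 0.6.6 and kallisto 0.46.2, and no source used here gives the transcript annotation. Libraries were made without marking strand and sequenced as paired 75 bp reads, per the labels' protocols, which speak of 4 biological replicates per line, where 3 libraries per group were analysed here. Without strand, reads of a gene and of an overlapping antisense transcript cannot be told apart. Of the values, 6.18% were not whole, and counts were rounded before testing. The files pair no identifier with a gene name and 0 of 34688 identifiers were found in the RefSeq gene table, so the names of the loci come from outside the files. Columns were assigned to groups by name. The numbers in the column names, from 2 to 5, are not the labels' replicate numbers.

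All libraries entered 1 edgeR 4.0.16 quasi-likelihood fit, run in R 4.3.3 with limma 3.58.1 and 1 coefficient for each group, TMM factors of 0.909 to 1.12 and the filterByExpr filter. A gene is called changed at a Benjamini-Hochberg adjusted p under 0.05 over the 18297 genes tested, in 13 comparisons. CPM used the unrounded counts over the scaled totals of tested genes. Standard errors are the log2 fold change over the square root of F, and the biological coefficient of variation was 28.1%. No 2 libraries were identical, and replicates differed beyond counting noise (chi-square per degree of freedom 6.56 to 46.1). Alternatives were DESeq2 1.42.0, RLE factors, no filter, only the groups compared, glmTreat, another reference, each library left out, and the column number as a block. The named genes were the members, the 3 targeted genes, and the 2 genes with the highest and the 2 with the lowest correlation with the family sum. Members and lists were chosen with earlier results of these data known. No sequence is printed, as none was given with the sources used here.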

Additional observations from a re-analysis of the deposited data

Results flagged for a closer look

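Solyc10g086180 differed between opposite perturbations of 1 gene: it was higher with SlWRKY71 overexpressed than in the mean of its knockout lines by 1.04 on the log2 scale (109 against 52.9 CPM; edgeR quasi-likelihood adjusted p = 0.0031; higher in 3 of 3 overexpression libraries than in all 6 knockout libraries). In that comparison 30.9% of all tested genes changed, 17.9% were higher, and 8.9% had all overexpression libraries above all knockout libraries. The 1 of 5 PAL copies is below the first of these shares and above the other 2. With 5 copies, 1 does not set the family apart from all genes. Overexpression library 2, which stood apart from its group, had the lowest of the 3 values, and its part in the result is given by the value without it, 1.17.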

How the results depend on the processing

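The number of copies called kept its value in 72 of 85 alternative settings and in 74 of 81 fits with 1 library left out. SlMYB41 KO against the control went from 0 to 1 called copy with DESeq2, without the filter and with only the groups compared, SlWRKY71 KO line 5 from 0 to 1 with DESeq2, without the filter and with the replicate block, and SlWRKY71 OE from 0 to 1 with DESeq2, without the filter (PAL5 both times) and with the other reference (Solyc10g086180). SlWRKY71 KO line 4 went from 1 to 0 with glmTreat at a log2 fold change of 1, the other reference and the replicate block. SlWRKY71 OE against its knockouts went from 1 to 0 with glmTreat, which tests for a larger change by construction. With 1 library left out, the SlMYB41 KO had 0 to 1 and SlWRKY71 KO line 4 had 0 in each fit. The causes were not tested.

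Of the log2 values, 396 of 424 settings and 367 of 405 fits with 1 library left out kept direction and side of the threshold. With the other reference the direction was reversed for Solyc05g056170 in SlMYB41 OE (-0.37), SlWRKY71 KO line 5 (-0.11) and SlWRKY71 OE (-0.09), for Solyc09g007890 in SlMYB41 OE (0.31) and SlMYB92 OE (0.34), for Solyc09g007900 in the SlMYB92 KO (0.16), SlMYB92 OE (0.4) and SlWRKY71 KO line 5 (0.07), for PAL5 in the SlMYB92 KO (0.28) and SlMYB92 OE (0.92), and for Solyc10g086180 in SlMYB41 OE (-0.05). With the replicate block it was reversed between SlWRKY71 OE and its knockouts for Solyc09g007900 (-0.1) and PAL5 (0.06, and 0.01 with only the groups compared), and between the SlWRKY71 knockout lines for PAL5 (-0.13).

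Leaving out 1 library turned the sign of some values, among them Solyc09g007890 in SlWRKY71 OE against KO (0.58) and Solyc09g007900 in SlMYB41 OE against KO (0.42). For Solyc05g056170 the ranges were -0.06 to 0.52 in SlMYB41 OE, -0.35 to 0.1 for SlMYB92 OE against KO, -0.43 to 0.11 between the SlWRKY71 knockout lines and -0.23 to 0.04 for SlWRKY71 OE against KO. For Solyc09g007890 they were -0.71 to 0.38 in SlMYB41 OE, -0.22 to 0.47 in the SlMYB92 KO, -0.62 to 0.46 between the MYB overexpression groups and -0.01 to 0.89 for SlWRKY71 OE against KO. For Solyc09g007900 they were -0.02 to 0.76 for SlMYB41 OE against KO, -0.08 to 0.72 between the MYB overexpression groups, -0.04 to 0.61 for SlMYB92 OE against KO and -0.45 to 0.42 for SlWRKY71 OE against KO. For PAL5 they were -0.1 to 0.47 for SlMYB41 OE against KO, -0.28 to 0.54 between the MYB knockouts, -0.18 to 0.56 between the SlWRKY71 knockout lines and -0.27 to 0.12 for SlWRKY71 OE against KO. For Solyc10g086180 they were -0.01 to 0.39 in the SlMYB41 KO, -0.13 to 0.15 in SlMYB41 OE, -0.59 to 0.04 in SlWRKY71 KO line 5, -0.34 to 0.06 for SlMYB41 OE against KO, -0.04 to 0.36 between the MYB knockouts and -0.38 to 0.24 between the SlWRKY71 knockout lines.

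The replicate block used the number in the column name. Libraries of the same number did not deviate together as a rule (67 pairs, r of -0.47 to 0.57, median -0.03, with 7 of 24 libraries closest to their own number). The median for pairs of different numbers was 0.02. Of the 67 pairs, 28 had r over 0.1, and whether some numbers share a batch was not tested. With the block, PAL5 in SlWRKY71 KO line 4 was at -1.37 (edgeR adjusted p = 0.1), PAL5 in line 5 passed (adjusted p = 0.047) and Solyc10g086180 in SlWRKY71 OE against KO stayed called at 0.93 (adjusted p = 0.0082). The family sums of all 8 groups moved by less than their SD in each of 16 settings. Leaving out 1 of 3 libraries cannot move a mean by its SD, so the 24 such fits do not bear on this. The number of all genes changed moved by over 1.5 times in 34 of 85 settings and 42 of 81 fits without 1 library. For SlWRKY71 OE against the control it was 164, with 29 to 1809 over the settings and 64 to 1607 with 1 library left out, the highest with the other reference and without library 2. For SlWRKY71 OE against KO it was 5652, with 652 to 6363 over the settings and 2440 to 7334 with 1 library left out. Over the settings the counts were 68 to 328 for SlMYB41 OE (179), 139 to 925 for SlMYB92 OE (601), 232 to 1425 for the SlMYB41 KO (935), 200 to 711 for the SlMYB92 KO (525), 70 to 2082 for SlWRKY71 KO line 4 (1266) and 113 to 2071 for line 5 (1425). Depth limits Solyc09g007890 most, with 2.13 to 33.8 counts per library.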
